A study of Homo sapiens with 6 samples.

Results

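Securin, separase and the cohesin complex hold sister chromatids together and release them at anaphase, and 10 genes of this system were followed here in bulk RNA-seq libraries of 1CT and 1CT-A cells. 1CT is an immortalized line of human colon epithelial cells and 1CT-A is the same line depleted of APC, the tumour suppressor whose loss is an early step of colorectal cancer. The members were named by gene symbol: PTTG1, ESPL1, SMC1A, SMC3, RAD21, STAG1, STAG2, ESCO2, CDCA5 and NIPBL. All 10 are among the 24462 symbols of the count files, and each has 1 entry there. There were 3 libraries of each line, made from 500 ng of total RNA of untreated cells with a Lexogen kit that the labels call Quant-Seq, and between 7788679 and 8452258 reads were counted per 1CT library and between 11158108 and 12602988 per 1CT-A library. Cells of both lines were grown in a DMEM and M199 mixture with 2% FBS, EGF at 20 ng/ml, insulin at 10 μg/ml, transferrin at 2 μg/ml, hydrocortisone at 1 μg/ml and sodium selenite at 5 nM. The paper mentions an hTERT manipulation of 1CT, and the labels call the 1CT-A libraries APC KD, for knockdown. The knockdown reagent of 1CT-A and whether it is a single clone are not given in the sources used here. The labels do not say that the 3 libraries of a line come from separate cultures, so the p-values measure the spread between these libraries, which may be technical.

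Cohesin is a ring built from SMC1A, SMC3 and the kleisin RAD21, to which STAG1 or STAG2 binds. NIPBL loads the ring on chromatin, ESCO2 acetylates SMC3 during S phase, and sororin, the product of CDCA5, then protects the ring from release until mitosis. At anaphase the anaphase-promoting complex marks securin, the product of PTTG1, for destruction, and the freed separase, the product of ESPL1, cuts RAD21. Securin and sororin are known as cell cycle genes with high mRNA in dividing cells, while the ring also shapes chromosome loops in cells that do not divide.

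Short sequences near gene starts are known to tie transcription to the cell cycle, and the start regions of 4 members are shown. The 4 were picked by their calls in the values that follow: ESPL1 and CDCA5 were called higher in 1CT-A, and PTTG1 and NIPBL were not. A tie between motifs and calls was not tested, and genes picked in this way cannot test it. The sequences are RefSeq promoter windows on GRCh38.p14 and show the 150 bases before the annotated start. Capitals mark any of 5 short motifs read on either strand. CCAAT is the box bound by NF-Y, TTTGAA and TTCGAA are forms of the cell cycle genes homology region (CHR), and TTTCCCGC and TTTGGCGC are forms of the E2F site.
PTTG1, chr5:160421705-160421854, plus strand: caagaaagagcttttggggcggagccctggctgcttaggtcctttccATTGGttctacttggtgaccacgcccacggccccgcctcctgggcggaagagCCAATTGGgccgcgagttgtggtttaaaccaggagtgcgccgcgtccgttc
ESPL1, chr12:53268149-53268298, plus strand: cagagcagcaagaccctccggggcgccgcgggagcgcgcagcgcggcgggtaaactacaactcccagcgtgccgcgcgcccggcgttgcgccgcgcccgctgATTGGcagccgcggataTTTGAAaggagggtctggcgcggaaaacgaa
CDCA5, chr11:65084041-65084190, minus strand: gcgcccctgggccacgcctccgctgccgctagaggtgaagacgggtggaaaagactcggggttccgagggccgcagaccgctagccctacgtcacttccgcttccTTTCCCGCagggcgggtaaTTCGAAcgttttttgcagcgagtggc
NIPBL, chr5:36876619-36876768, plus strand: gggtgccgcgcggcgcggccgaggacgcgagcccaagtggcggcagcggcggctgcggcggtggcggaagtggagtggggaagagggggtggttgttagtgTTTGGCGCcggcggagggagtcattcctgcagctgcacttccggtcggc

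A window was found for 8 of the 10 members, 12 windows in all, and the 250 bases before the start were searched. The PTTG1 window shown holds 3 CCAAT matches, of which the pair nearest to the start overlaps. In ESPL1, 1 CCAAT match from base 48 to base 44 before the start is followed by TTTGAA from base 31 to base 26. CDCA5 holds TTTCCCGC from base 45 to base 38 and TTCGAA from base 26 to base 21. NIPBL, which was not called, holds TTTGGCGC from base 49 to base 42. Among the members not printed, each in at least 1 of its windows, SMC3 holds TTTGAA, SMC1A holds TTTCCCGC, STAG1 holds CCAAT and TTTCCCGC, and STAG2 holds CCAAT and TTTGGCGC. Of all 35116 windows of the table, 32.0% hold CCAAT, 13.3% TTTGAA, 1.19% TTCGAA, 1.39% TTTCCCGC and 0.55% TTTGGCGC. The matches are descriptions of letters and not of binding.

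APC, the depleted gene, was counted at 49.3, 43.8 and 46.6 CPM (the gene's count scaled to the file's total) in 1CT and at 31.5, 30.0 and 34.4 CPM in 1CT-A. All 1CT-A libraries lie below all 1CT libraries (log2 fold change -0.58, with a standard error, SE, of 0.09). The labelled cell type was checked against markers. Of 12 epithelial markers, 7 had at most 3 counts in every library and EPCAM, VIL1, CLDN3 and MUC2 had none. CDH1 (E-cadherin) had 3 to 4 counts in a 1CT library and 0 to 3 in a 1CT-A library, CLDN4 at most 2 and at most 7, and KRT8 at most 14 and at most 8. KRT18 had 82 to 109 counts in 1CT and 36 to 80 in 1CT-A and fell (log2 fold change -1.19, edgeR adjusted p = 0.00088), and KRT19 had 20 to 34 counts in 1CT and 0 in 1CT-A. Most of the defining epithelial markers were thus at or near 0 in both lines, among them the keratin KRT20 with at most 1 count. The exceptions were KRT18 in both lines and KRT19 in 1CT only. The 11 mesenchymal markers summed to between 45072 and 53092 CPM in 1CT and between 22142 and 23543 CPM in 1CT-A, most of it FN1, the fibronectin gene, with 4.02 to 4.73% of the counts in 1CT and 1.74 to 1.90% in 1CT-A. Single mesenchymal markers went in both directions, with 7 of the 11 called lower and 3 called higher, namely COL3A1 (log2 fold change 2.37), TWIST1 (1.87) and ZEB1 (0.44). Of 8 blood and endothelial markers, 7 had at most 3 counts in every library. The part of these differences in the results was not tested.

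Across all genes, 12514 passed the filter on low counts and 51.0% of them were called, meaning that the quasi-likelihood test of edgeR gave a Benjamini-Hochberg adjusted p below 0.05, 25.0% as higher and 26.0% as lower in 1CT-A. All 10 members passed the filter. Of these, 8 were called and all 8 were higher in 1CT-A, and PTTG1 and NIPBL were not called. The libraries of the lines did not overlap in CPM for 9 members, all 9 higher in 1CT-A, while 59.7% of all genes tested did not overlap and 31.8% lay higher. The median log2 fold change of the members was 0.65, and that of all genes tested was -0.01. By the thresholds of the study, a 2-fold change and an unadjusted p below 0.01, ESCO2 was the only member called, beside 13.4% of all genes in either direction and 3.80% higher in 1CT-A. In bulk libraries a change in the share of dividing cells and a change in RNA per cell cannot be told apart.

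**Figure D1:**
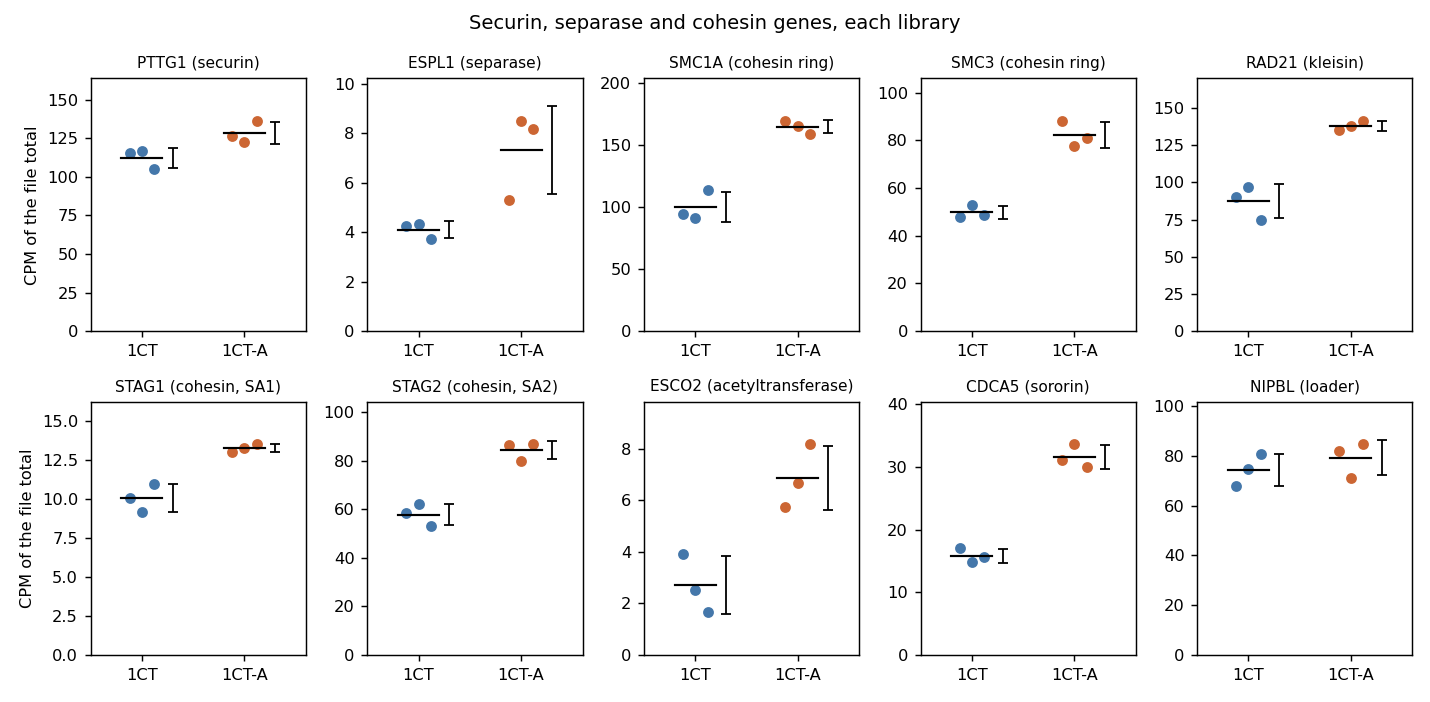
Level of each of the 10 genes in CPM of the file's total (y axis, from 0) by library, 3 per line. Points are libraries, horizontal lines are means and bars beside them are the SD (n = 3), and only NIPBL shows overlapping groups.

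PTTG1 encodes securin, the inhibitor and chaperone of separase that the study perturbed with siRNA. It was at 115, 117 and 105 CPM in 1CT and at 126, 123 and 136 CPM in 1CT-A. The highest 1CT library and the lowest 1CT-A library were close, at 116.8 and 122.6 CPM, but the groups did not overlap. Its mean level was 112 ± 6.53 CPM in the 1CT libraries and 128 ± 7.11 CPM in the 1CT-A libraries (SD, n = 3 each). The log2 fold change was 0.16 (95% interval -0.01 to 0.32) and was not called (edgeR adjusted p = 0.102). The call depends on the scaling, since library size without TMM gave 0.19 and an edgeR adjusted p of 0.0484 while upper-quartile normalization gave 0.10 and 0.288, and the value stayed between 0.12 and 0.20 whichever library was left out. Reads of the close copies PTTG2 and PTTG3P may have been divided with those of PTTG1 in counting. PTTG2 had 18 to 27 counts in a 1CT library and PTTG3P had 19 to 31, against 816 to 974 for PTTG1. With the counts of the 3 genes added together the log2 fold change was 0.15 (edgeR adjusted p = 0.102).

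ESPL1 encodes separase, the protease that opens the cohesin ring. It was at 4.26, 4.35 and 3.72 CPM in 1CT and at 5.29, 8.51 and 8.17 CPM in 1CT-A. The groups did not overlap, and 1CT-A replicate 1 was lower than the other 1CT-A libraries. These levels rest on 29 to 36 counts per library in 1CT and 59 to 103 counts in 1CT-A. ESPL1 rose by a log2 fold change of 0.79 (SE 0.22, edgeR adjusted p = 0.00856), and leaving out any 1 library gave values from 0.69 to 0.98.

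The balance of securin to separase was read within each library, where no scaling enters. The number of PTTG1 reads per ESPL1 read was 27.1, 26.9 and 28.1 in 1CT and 23.9, 14.4 and 16.7 in 1CT-A. All 1CT-A libraries were below all 1CT libraries, and they were also more spread. The difference of the log2 ratio was -0.61, from 4.77 ± 0.04 (SD, n = 3) in 1CT to 4.16 ± 0.38 (SD, n = 3) in 1CT-A. An exact two-sided permutation test gave p = 0.1, the smallest that 3 libraries against 3 allow, so the design cannot pass a threshold of 0.05. The ratio is one of reads and depends on transcript length and capture, so it gives no ratio of transcripts or protein. It was -0.82 without 1CT-A replicate 1, the library nearest to 1CT, and -0.45 without 1CT-A replicate 2.

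SMC1A and SMC3 encode the coiled arms of the ring. SMC1A was at 94.3, 91.6 and 114 CPM in 1CT and at 170, 165 and 159 CPM in 1CT-A. SMC3 was at 48.0, 52.8 and 48.5 CPM in 1CT and at 88.3, 77.5 and 80.9 CPM in 1CT-A. For each gene every 1CT-A library lay above every 1CT library, and the lowest 1CT-A value of SMC1A exceeded its highest 1CT value although 1CT replicate 3 was above the other 1CT libraries. SMC1A rose by a log2 fold change of 0.68 (SE 0.09, edgeR adjusted p = 4.2e-05). SMC3 rose by 0.69 (SE 0.09, edgeR adjusted p = 2.3e-05). The changes of these partner genes differed by less than their standard errors.

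RAD21, the kleisin that closes the ring and the substrate of separase, was at 90.2, 97.1 and 74.7 CPM in 1CT and at 135, 138 and 142 CPM in 1CT-A. The 1CT libraries were the more spread, with replicate 3 the lowest, and the groups did not overlap. RAD21 rose by a log2 fold change of 0.62 (SE 0.09, edgeR adjusted p = 7.4e-05). The value was lowest, at 0.54, without 1CT replicate 3 and highest, at 0.71, without 1CT replicate 2.

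STAG1 and STAG2 encode the alternative subunits that bind RAD21 and hold the ring on chromatin. STAG2 was at 58.3, 62.1 and 53.2 CPM in 1CT and at 86.5, 80.0 and 86.8 CPM in 1CT-A. It rose by a log2 fold change of 0.51 (SE 0.08, edgeR adjusted p = 2.3e-04). STAG1 was at 10.1, 9.18 and 10.9 CPM in 1CT and at 13.0, 13.3 and 13.5 CPM in 1CT-A. The groups did not overlap for either gene, and STAG1 had the smallest change of the members that were called. Its log2 fold change was 0.36 (SE 0.13, edgeR adjusted p = 0.0379). The call of STAG1 was lost without 1CT replicate 1 (adjusted p = 0.0786), without 1CT replicate 2 (0.123) and without 1CT-A replicate 1, 2 or 3 (0.0683, 0.0780 and 0.0947), and it was kept without 1CT replicate 3 (0.0177), all with edgeR. DESeq2 gave an adjusted p of 0.111. STAG1 reads per STAG2 read were 0.172, 0.148 and 0.205 in 1CT and 0.150, 0.166 and 0.155 in 1CT-A. These ratios overlapped (difference of the log2 ratio -0.15, exact two-sided permutation test, p = 0.5), so a shift between the alternative subunits was not detectable with these libraries.

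Added over SMC1A, SMC3, RAD21, STAG1 and STAG2, the 5 subunit genes summed to 301, 313 and 301 CPM in 1CT and to 493, 474 and 482 CPM in 1CT-A. The sum was steadier between libraries than most single subunits and did not overlap between the lines. The difference on the log2 scale was 0.66, with an SD over 3 libraries of 0.03 in each line, and it was 0.62 with TMM-normalized CPM. No p-value is given for this sum, since it was taken over chosen genes.

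**Figure D2:**
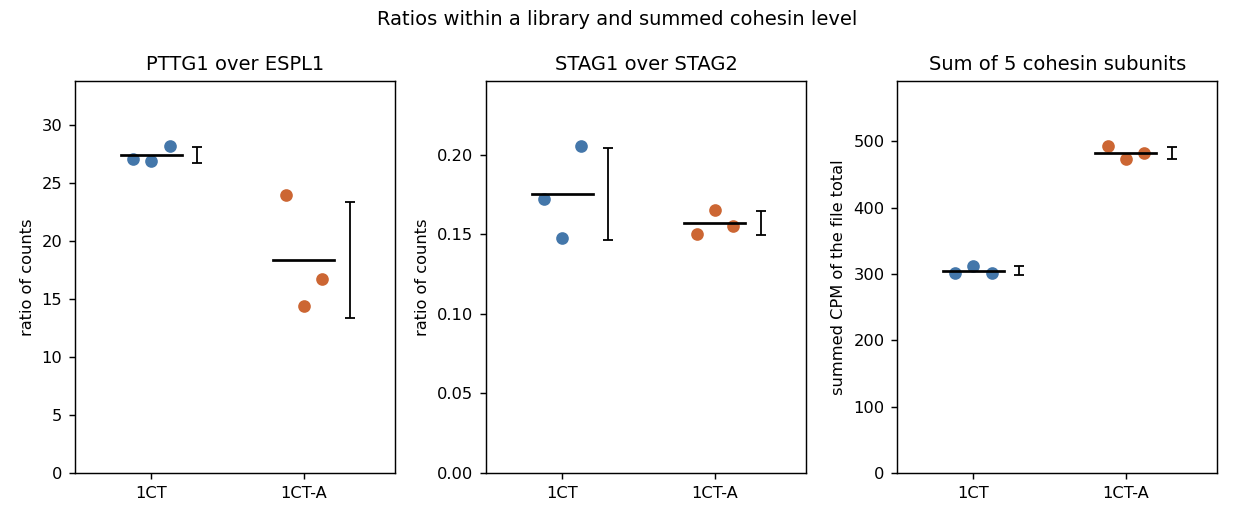
Reads of PTTG1 per read of ESPL1, reads of STAG1 per read of STAG2, and summed CPM of SMC1A, SMC3, RAD21, STAG1 and STAG2 (y axes from 0) in the 3 libraries of each line. Points are libraries, lines are means and bars are the SD (n = 3), and the groups overlap only for STAG1 over STAG2.

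ESCO2, the acetyltransferase that acts on SMC3 in S phase, had the largest change of the members. It was at 3.90, 2.54 and 1.67 CPM in 1CT and at 5.74, 6.67 and 8.17 CPM in 1CT-A. All 1CT-A libraries were above all 1CT libraries, but the 1CT values were widely spread and rest on 33, 21 and 13 counts. ESCO2 rose by a log2 fold change of 1.30 (SE 0.27, 95% interval 0.71 to 1.88, edgeR adjusted p = 0.00141). Leaving out any 1 library gave values from 1.07 (1CT replicate 3) to 1.66 (1CT replicate 1).

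CDCA5 encodes sororin, which binds acetylated cohesin and blocks its release by WAPL. It was at 17.0, 14.9 and 15.7 CPM in 1CT and at 31.1, 33.6 and 30.0 CPM in 1CT-A. The groups were far apart relative to their spread. CDCA5 rose by a log2 fold change of 0.95 (SE 0.11, edgeR adjusted p = 9.0e-06).

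NIPBL, the large subunit of the cohesin loader, was the only member whose groups overlapped. It was at 67.9, 74.6 and 80.6 CPM in 1CT and at 82.1, 71.3 and 84.7 CPM in 1CT-A. The lowest 1CT-A library lay below the middle of the 1CT libraries. The log2 fold change was 0.06 (95% interval -0.15 to 0.26) and was not called (edgeR adjusted p = 0.651). Its sign was not stable, being -0.01 without 1CT replicate 1. NIPBL-AS1 is an antisense transcript at the same locus that was counted apart from NIPBL. Since the strand setting is not stated, reads from any stretch that both share could have been counted for either. NIPBL-AS1 had 40 to 54 counts in 1CT and 66 to 92 in 1CT-A, against 574 to 628 and 812 to 1068 for NIPBL. It was not called either (log2 fold change 0.20, edgeR adjusted p = 0.392).

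Ordered by change, the members ran from NIPBL at 0.06 and PTTG1 at 0.16 over STAG1, STAG2, RAD21, SMC1A and SMC3, whose 95% intervals overlap, to ESPL1, CDCA5 and ESCO2. The interval of ESPL1, from 0.32 to 1.27, overlaps each of those of the cohesin subunits, so its place above them is not settled. Those of CDCA5, from 0.72 to 1.18, and ESCO2, from 0.71 to 1.88, overlap those of RAD21, SMC1A and SMC3, but not those of STAG1 and STAG2. The intervals of ESPL1, CDCA5 and ESCO2 also overlap each other, so the order of these genes is not settled either. Among the changes of all 12514 genes, NIPBL was at percentile 54.8 and PTTG1 at percentile 62.8, SMC1A and SMC3 were at 90.4 and 90.5, and ESPL1, CDCA5 and ESCO2 were at 92.8, 95.5 and 97.7.

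The remaining genes that load, acetylate, release or protect cohesin formed a list of 17, of which 11 were called higher in 1CT-A, 6 were not called and none was called lower (median log2 fold change 0.45). Beside this, 51.0% of all genes tested were called, 25.0% as higher. The shugoshins, which shield centromeric cohesin from early release, were among the largest rises. SGOL2 (shugoshin 2) was at 27.6, 28.0 and 23.2 CPM in 1CT and at 59.9, 62.7 and 57.1 CPM in 1CT-A (log2 fold change 1.15, SE 0.09, edgeR adjusted p = 5.9e-07). SGOL1 (shugoshin 1) was at 6.86, 10.0 and 11.4 CPM in 1CT and at 16.9, 20.5 and 21.9 CPM in 1CT-A (log2 fold change 1.03, SE 0.17, edgeR adjusted p = 2.9e-04). DSCC1, a part of the clamp loader that works with cohesin at replication forks, rose by 1.07 (SE 0.12, edgeR adjusted p = 9.1e-06).

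Genes of cohesin release were among those called. PDS5A and PDS5B encode cohesin regulators that act with WAPL in release and with sororin in maintenance, and their log2 fold changes were 0.63 (SE 0.07) and 0.77 (SE 0.12), with edgeR adjusted p of 7.5e-06 and 2.0e-04. The release factor WAPL, counted under its older symbol WAPAL, was at 48.3, 47.1 and 41.1 CPM in 1CT and at 60.3, 61.7 and 57.4 CPM in 1CT-A (log2 fold change 0.36, edgeR adjusted p = 0.00385). CTCF, the factor that stops cohesin at loop borders, rose by 0.68 (SE 0.08, edgeR adjusted p = 2.0e-05). CHTF18, another part of the clamp loader, rose by 0.54 (edgeR adjusted p = 0.0012). PPP2R5A, a phosphatase subunit, rose by 0.45 (edgeR adjusted p = 0.0119), a call lost without 1CT-A replicate 3 (adjusted p = 0.0575). GSG2, the kinase haspin, had a log2 fold change of 0.78 (edgeR adjusted p = 0.0369), and its call was lost without 1CT replicate 1 or 3 (0.0956 and 0.0983), without 1CT-A replicate 1 or 2 (0.0899 and 0.107), with DESeq2 (0.103) and with upper-quartile normalization (0.0503). HDAC8, which removes the acetyl groups from SMC3, had a log2 fold change of 0.28 (edgeR adjusted p = 0.0209), and its call was lost without 1CT replicate 1 (0.21, adjusted p = 0.0958), without 1CT-A replicate 1 (0.25, adjusted p = 0.0737) and with upper-quartile normalization (0.22, adjusted p = 0.0613).

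MAU2 and ESCO1 were not called. MAU2, the partner of NIPBL in the loader, was at 26.1, 32.0 and 31.7 CPM in 1CT and 27.9, 25.8 and 21.6 CPM in 1CT-A, so that the groups overlapped. Its log2 fold change was -0.30 (SE 0.12, edgeR adjusted p = 0.0593), and it was called lower without 1CT replicate 1 (-0.39, adjusted p = 0.0251), without 1CT-A replicate 1 (-0.38, adjusted p = 0.0381), with upper-quartile normalization (-0.35, adjusted p = 0.0295) and, barely, with a filter of 10 counts in every library (-0.31, adjusted p = 0.04999). ESCO1, the acetyltransferase that works outside S phase, had a log2 fold change of 0.01 (95% interval -0.50 to 0.52, edgeR adjusted p = 0.969), on 27 to 60 counts per library. The difference between ESCO1 and ESCO2 was not tested. Also not called were DDX11 (0.38, edgeR adjusted p = 0.0636, and called without 1CT replicate 3 at 0.0416 and without 1CT-A replicate 2 at 0.0404), CHTF8 (0.13) and PPP2R1A (-0.03).

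**Figure D3:**
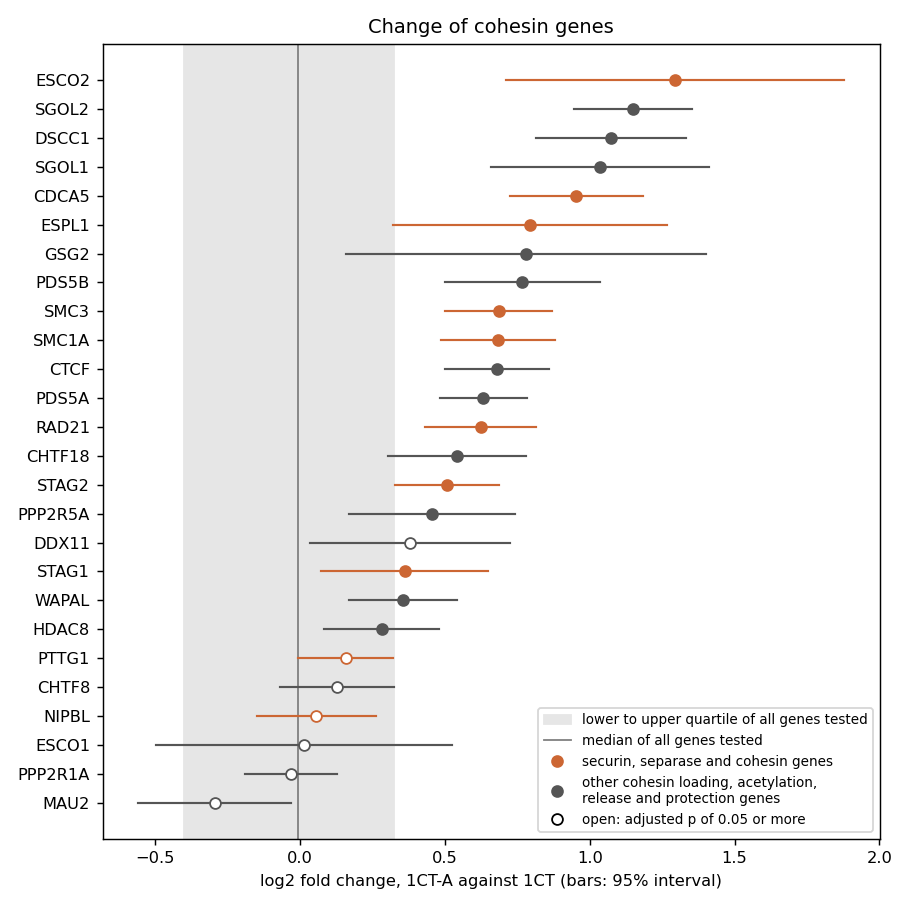
Change of each gene as log2 of 1CT-A over 1CT (x axis) with its 95% interval for the 10 genes of securin, separase and cohesin and for other cohesin genes, open points being those not called. The grey band runs from the lower to the upper quartile of all genes tested, from -0.40 to 0.33, and the points of PTTG1 and NIPBL lie inside it while those of the other 8 lie to its right.

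The meiotic cohesin subunits were checked for reads that could stand for other rings. RAD21L1 had no count and SMC1B at most 1 count in a library. REC8 ranged from 9.35 to 15.3 CPM in the 1CT libraries and from 11.1 to 14.2 CPM in those of 1CT-A. STAG3 had 8 to 14 counts in a library. Neither REC8 (log2 fold change 0.04, edgeR adjusted p = 0.868) nor STAG3 (-0.42, edgeR adjusted p = 0.357) was called. The STAG3-like copies STAG3L1, STAG3L2, STAG3L3 and STAG3L4 had log2 fold changes from -0.61 to -0.32, the same in sign as STAG3 and opposite to STAG1 and STAG2. Only STAG3L4 was called (-0.61, SE 0.21, edgeR adjusted p = 0.0256), and its call was lost without 1CT replicate 1 (adjusted p = 0.0742), without 1CT replicate 2 (0.0763), without 1CT-A replicate 1 (0.0784) and without 1CT-A replicate 3 (0.0762). Reads of these close copies may be divided between them.

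Genes that act on securin and separase formed a list of 14, from the ubiquitin ligase that marks securin and its activators to the checkpoint that holds it back. Of these, 12 were called higher in 1CT-A, beside 25.0% of all genes tested, none lower, and the median log2 fold change was 0.99. The 3 largest rises were those of BUB1B (1.38, SE 0.12) and MAD2L1 (1.34, SE 0.13), which inhibit the ligase until chromosomes are attached, and of UBE2C (1.33, SE 0.09), the ubiquitin-conjugating enzyme that works with it. Their edgeR adjusted p were 1.2e-06, 2.5e-06 and 6.8e-08. FZR1, the activator of the ligase in G1, was among the genes not called, at 0.13 (edgeR adjusted p = 0.356).

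Genes of S phase and of G2/M phase were also higher in 1CT-A. These lists share genes with those above, namely AURKB, BUB1, CDC20, CDK1, TTK and UBE2C with the securin and separase list, DSCC1 and CTCF with the cohesin list, and SMC4 and NCAPD2 with condensin. Of 43 S phase genes of the Seurat list, 41 were called higher and none lower (median log2 fold change 0.85), and their summed level ran from 2029 to 2152 CPM among the 1CT libraries and from 3875 to 3922 CPM among the 1CT-A libraries. Of 54 G2/M phase genes, 50 were called higher and none lower (median 0.86), with sums from 4989 to 5239 CPM among the 1CT libraries and from 8754 to 8796 CPM among those of 1CT-A. The share called higher over all genes tested was 25.0%. No S phase gene had a smaller log2 fold change than PTTG1, and of the G2/M phase genes HN1 and RANGAP1 did, which were singled out after their values were seen. PTTG1, whose mRNA is known to peak in G2/M, is not part of either list. Whether the rise of the cohesin genes is tied to that of the S phase and G2/M phase genes was not tested.

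**Figure D4:**
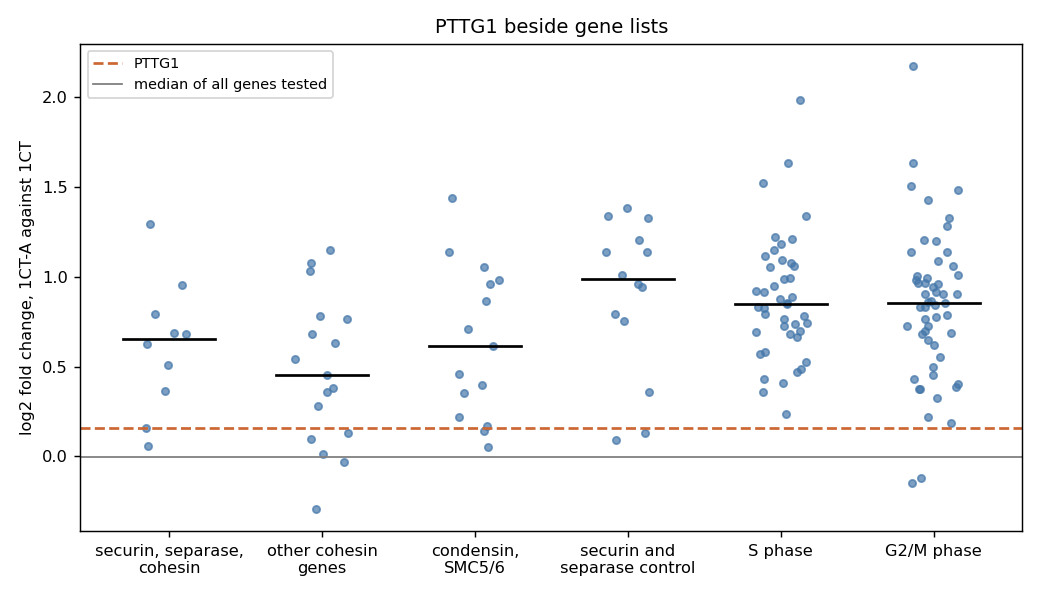
Change as log2 of 1CT-A over 1CT (y axis) of every tested gene in 6 lists, with list medians as black lines, PTTG1 as a dashed line and the median of all genes tested as a grey line. The list medians lie between 0.45 and 0.99, above PTTG1 at 0.16.

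The genes whose levels followed those of PTTG1 most closely over the 6 libraries were taken by the smallest root mean square difference of centred log2 CPM among 8223 genes whose mean level reached 10 CPM. They were GNPNAT1, MBOAT2, ASH2L, ARF1 and GHITM, with differences from 0.0126 to 0.0278, and none of them was called. For SMC3 they were ADIPOR2, KIF4A, EXOSC6, SART3 and ABCB6, with differences from 0.0280 to 0.0471 and log2 fold changes from 0.62 to 0.72. Since the genes were picked by their levels in these same 6 libraries, changes and calls like those of PTTG1 and SMC3 follow from the choice. KIF4A is a chromosome-bound kinesin that works beside condensin, and ARF1 is a small GTPase of vesicle transport.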

How the data were processed

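RNA of 3 libraries of 1CT and 3 of 1CT-A was sequenced after preparation with a Lexogen kit named Quant-Seq in the labels. That name is used for kits that read transcript ends, so levels of different genes are not compared as transcript abundance, and counts of copies and ratios of reads are given as reads only. The authors deposited raw counts per gene symbol, 1 file per library and without pooling. The submitters' processing notes name Bowtie2, edgeR and hg19 without versions, and the annotation and strand setting are not given in the sources used here. Repeated symbols were added (286 symbols). Single levels are CPM of the file's total. The lines were compared by the quasi-likelihood test of edgeR 4.0.16 (R 4.3.3). It followed TMM scaling (factors 0.976 to 1.02) and filterByExpr with a minimum count of 10, and p was adjusted over 12514 genes. This fit was also run on simulated counts with known changes in few genes and the same dispersion for every gene. In the data 51.0% of genes were called, so the simulated counts do not check the scaling or the error rate there. limma 3.58.1 and DESeq2 1.42.0 served as alternatives. Replicates differed by more than counting noise (chi-square per degree of freedom 3.11 to 9.00). The members and lists were chosen with earlier results of these data known, and the promoter motifs after the sequences were seen. Genes named by rule are the 10 members, the copies and other cohesin genes, up to 3 called rises and falls of the other lists, APC, and the 5 genes closest to PTTG1 and to SMC3. Named outside this rule are SMC2, FZR1, HN1, RANGAP1, the meiotic subunits, further cell type markers and genes listed only as shared between lists. Promoter coordinates are those of RefSeq on GRCh38.p14 and were not converted to hg19. At these depths 3 counts, the most that a count of 0 allows, correspond to 0.238 to 0.385 CPM, which covers counting error only. The paper's single cell and siRNA experiments were not analysed here, and some single genes of the lists are counted there but not reported here.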

Additional observations from a re-analysis of the deposited data

How the results depend on the processing

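The alternatives were DESeq2 size factors, scaling by library size only, a filter of at least 10 counts in every library or none, the tools DESeq2 and limma-voom, the replicate block and each library left out in turn, and upper-quartile normalization was added after seeing the data. ESPL1, SMC1A, SMC3, RAD21, STAG2, ESCO2 and CDCA5 stayed higher and called in all of them. Between 7 and 9 members were called. Over all genes the count ran from 5364 of 12560 tested without 1CT-A replicate 3 to 7238 of 19169 without a filter on low counts. By the study's thresholds (2-fold and unadjusted p below 0.01), applied to the edgeR test and not to the paper's t-test, the count was 1 member and 1676 of all genes. PTTG1 was called with library size only (0.19). STAG1 lost its call with DESeq2 (0.36), the replicate block (0.36) and upper-quartile normalization (0.30), and its values ran from 0.30 to 0.44 with a library left out. The summed cohesin level was 0.62 with TMM-normalized CPM. The cause of these changes was not tested.

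The sign of values near 0 turned for NIPBL (-0.0013 with upper-quartile normalization, -0.0081 to 0.14 with a library left out), ESCO1 (-0.0045 with at least 10 counts, -0.043 with upper-quartile normalization, and from -0.14 without 1CT replicate 3 to 0.31 without 1CT replicate 1), PPP2R1A (0.0047 with library size only, 0.013 without a filter, -0.063 to 0.028 with a library left out), PTTG2 (-0.051 to 0.23 with a library left out) and PTTG3P (-0.10 to 0.25). The count of called close copies was 0 without a filter and with DESeq2, 2 with at least 10 counts and with upper-quartile normalization, and 0 to 1 with a library left out. That of blood and endothelial markers, 1 gene, was 0 with library size only, no filter, DESeq2 and the replicate block, and 0 to 1 with a library left out. That of epithelial markers was 1 with at least 10 counts in every library, since KRT19 was then not tested.

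Replicate numbers 1 to 3 occur in both lines, but libraries with the same number deviated from their line's mean with correlations of -0.16, 0.22 and -0.14 over 8224 genes, so that the numbers were not taken as pairs. With the replicate block 6091 genes and 7 members were called, against 6388 and 8 without it. For the log2 ratio of PTTG1 to ESPL1, pairing cannot change the mean difference of -0.61, so it is no check of that value. With a library left out the difference ran from -0.82 to -0.45. Depth limits ESPL1 and ESCO2 most, with as few as 29 and 13 counts in a library.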

Other observations

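The other ring complexes of the SMC family were counted too. Of 15 genes of condensin, which compacts mitotic chromosomes, and of the SMC5/6 complex, which acts in DNA repair, 10 were called higher in 1CT-A, 5 were not called and none was lower (median log2 fold change 0.62). Over all genes tested 51.0% were called, 25.0% as higher. NCAPH, the kleisin of condensin I, was at 16.8, 21.4 and 11.9 CPM in 1CT and at 42.7, 52.0 and 45.1 CPM in 1CT-A, and had the largest rise of the list (1.44, SE 0.15, edgeR adjusted p = 6.1e-06). SMC4, a core ATPase of condensin, rose by 1.14 (SE 0.08, edgeR adjusted p = 2.1e-07), and its partner SMC2 by 0.96 (SE 0.08, edgeR adjusted p = 4.6e-07). NCAPD3 of condensin II rose by 1.06 (SE 0.19, edgeR adjusted p = 5.7e-04). The difference between condensin and cohesin genes was not tested.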
